A study of Drosophila melanogaster with 3 samples.

Results

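The genes described here are those that encode the machinery of transcription in Drosophila melanogaster: subunits of Mediator, TBP and its associated factors (TFIID), the general factors TFIIA, TFIIB, TFIIE, TFIIF and TFIIS, and the subunits of RNA polymerases I, II and III. They were picked by symbol, from the protein-coding genes of Ensembl release 115 whose names begin with MED and a number, Taf and a number, TfII, Polr1, Polr2 or Polr3, or are Tbp. The choice of genes was made with earlier results of these data known. The rule found 80 of the 13968 protein-coding genes on the chromosomes 2L, 2R, 3L, 3R, 4, X and Y. Of the 80, 25 encode Mediator subunits, 16 TFIID subunits, 9 general factors and 30 polymerase subunits. Subunits that carry other names, such as those of the Mediator kinase module and of TFIIH, fall outside the rule and were counted apart.

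The peaks are those of the protein CG2712, a C2H2 zinc finger protein, in chromatin immunoprecipitation with sequencing (ChIP-seq). Whole embryos of both sexes, 0 to 16 hours old, came from a transgenic fly line in which CG2712 carries GFP at its C terminus, and the tagged protein was pulled down with an anti-GFP antibody. There were 3 biological replicates of this 1 group and no second condition, so every comparison here is between genes, and the spread is that between the 3 replicates. A collection of whole embryos mixes all tissues and ages, and the antibody sees the tagged copy only.

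Mediator carries signals from DNA-bound activators to RNA polymerase II, with a head and a middle that contact the polymerase and a tail that activators bind. TFIID, built from TBP and the TAFs, recognises core promoters and, with the general factors, places polymerase II at the start of a gene. Polymerase I makes the large ribosomal RNA precursor, polymerase II makes messenger RNA, and polymerase III makes transfer RNAs and the 5S ribosomal RNA. Some of their subunits are shared by all of these enzymes. The genes of these subunits are themselves transcribed by polymerase II, and the question here is at which of their promoters CG2712 peaks lie.

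A gene was counted as having a promoter peak where a summit, the highest point of a peak, lay within 500 bp of any of its transcript starts. The IDR list, named for the irreproducible discovery rate, holds 9789 peaks, which are the 9789 strongest of the pooled list by the deposited signal value. The pooled list and each replicate list hold 30000 peaks. Signal values of different replicates may be on different scales, so replicates are compared by rank, where rank 1 is the strongest peak of a list. The depth behind the lists is unknown, and a gene with no peak in a list is only not listed there.

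CG2712 peaks lay at the promoters of 46 of the 80 machinery genes in the IDR list, a share of 57.5% (exact binomial 95% interval 45.9 to 68.5%), against 35.6% of all protein-coding genes. In the pooled list 58 of the 80 had one, 72.5%, against 49.2% of all protein-coding genes. In replicate 1 the count was 60, or 75%, against 49.2% of all protein-coding genes. In replicate 2 it was 61, or 76.2%, against 50.7% of all protein-coding genes, and in replicate 3 it was 66, or 82.5%, against 51.8% of all protein-coding genes. The share was thus above that of all protein-coding genes in each of the 5 lists. Over the replicates it averaged 77.9% ± 4.02 (SD, n = 3) for the machinery genes and 50.6% ± 1.3 (SD, n = 3) for all protein-coding genes. The difference was 25.8, 25.6 and 30.7 percentage points in replicates 1, 2 and 3, with a mean of 27.3 ± 2.88 points (SD), and was positive in 3 of 3 replicates. The two-sided exact sign-flip permutation test gave p = 0.25, the smallest that 3 replicates allow, so the difference cannot pass the threshold of 0.05 in this design. Exact intervals of shares cover counting error only.

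The machinery genes were listed often, but their peaks were of ordinary strength. The median signal at the 46 genes was 439.5, and the median over all 4973 protein-coding genes with an IDR promoter peak was 474.2. Their median rank in the IDR list was 4515.5, against 4137 for all listed protein-coding genes. Among the 1000 strongest peaks of the list stood the peaks of 9 of the 46, or 19.6%, against 740 listed protein-coding genes, or 14.9%. These 9 genes were Taf5, Polr3E, Polr2B, MED27, Taf2, MED30, MED17, Polr2J and TfIIA-L.

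The sequences under some of the summits are printed to show their base composition, which varied. Each is 101 bases of the RefSeq sequence of the same assembly (build dm6), 50 on either side of the IDR summit, written 5′ to 3′ on the strand of the gene, with runs of at least 6 A or T in capitals. The first 6 are the strongest peaks of Mediator (chr3R:5654976-5655076, plus strand), of TFIID outside 1 gene whose sequence is not shown (chr3L:9888862-9888962, minus strand), of the general factors (chr3R:27253223-27253323, plus strand), of polymerase II (chr3R:14125644-14125744, plus strand), of polymerase III (chr3L:21031521-21031621, plus strand) and of the subunits common to all the polymerases (chr3L:21728738-21728838, plus strand). The Taf10 peak (chr2L:2767728-2767828, plus strand) is the 1 within reach of a pair of these genes, Taf10 and Taf10b. For contrast, the last 2 come from genes with no promoter summit in any list, TfIIFbeta (chr3R:10767877-10767977, minus strand) and MED22 (chrX:927966-928066, plus strand), centred 123 bp upstream of the start, which is the median distance of the summits.
MED27: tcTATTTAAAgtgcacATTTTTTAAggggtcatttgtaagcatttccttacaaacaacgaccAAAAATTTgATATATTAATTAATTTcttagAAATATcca
Taf2: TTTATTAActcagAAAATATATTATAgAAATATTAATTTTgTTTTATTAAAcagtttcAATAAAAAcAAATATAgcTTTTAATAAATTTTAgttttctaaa
TfIIA-L: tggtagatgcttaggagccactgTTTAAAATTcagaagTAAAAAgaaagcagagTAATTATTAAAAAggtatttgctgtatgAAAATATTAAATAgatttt
Polr2B: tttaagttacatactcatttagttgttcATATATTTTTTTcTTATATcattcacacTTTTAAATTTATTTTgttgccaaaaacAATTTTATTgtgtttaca
Polr3E: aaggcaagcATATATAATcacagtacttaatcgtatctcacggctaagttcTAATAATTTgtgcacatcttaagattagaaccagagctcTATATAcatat
Polr2H: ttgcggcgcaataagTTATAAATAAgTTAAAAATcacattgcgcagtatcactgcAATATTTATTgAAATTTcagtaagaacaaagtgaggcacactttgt
Taf10: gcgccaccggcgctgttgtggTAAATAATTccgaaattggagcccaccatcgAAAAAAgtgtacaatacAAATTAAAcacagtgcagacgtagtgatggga
TfIIFbeta: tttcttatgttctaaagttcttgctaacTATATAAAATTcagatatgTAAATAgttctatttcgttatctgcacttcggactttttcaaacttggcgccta
MED22: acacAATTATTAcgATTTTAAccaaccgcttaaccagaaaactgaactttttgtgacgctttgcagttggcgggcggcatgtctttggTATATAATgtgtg
The G + C content of these windows was 25.7% at MED27, 12.9% at Taf2, 26.7% at TfIIA-L and 19.8% at Polr2B. It was 32.7% at both Polr3E and Polr2H and 45.5% at Taf10, the richest in G and C of those shown. The Taf2 window holds 7 A/T runs, the longest of 15 bases, and the longest run of the MED27 window is 16 bases. The G + C of the windows without a peak, 30.7% at TfIIFbeta and 40.6% at MED22, lay within the range of the others. TfIIFbeta had 2 such runs, fewer than any window shown with a peak, and MED22 had 3. These 2 windows cannot show whether promoters with and without a peak differ. Median G + C was also taken over the promoter stretch searched below for known sequences. It was 34.4% at the 46 machinery genes with an IDR summit and 36.9% at the 34 without one. Over all protein-coding genes it was 36.5% with one and 38.9% without one. These gaps were not tested.

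Mediator genes had a promoter peak in the IDR list at 16 of 25 (64%, exact 95% interval 42.5 to 82%), against 35.6% of all protein-coding genes. They averaged 84% ± 8 over the replicates, with 19, 21 and 23 genes in replicates 1, 2 and 3, against 50.6% ± 1.3 for all protein-coding genes (SD, n = 3). The strongest was at MED27 (FBgn0037359), a subunit at the junction of head and tail, with a signal of 1887, rank 528 in the IDR list and ranks 292, 633 and 659 in replicates 1, 2 and 3. Its summit lay 113 bp upstream of the start. MED30, of the same junction, followed with a signal of 1519, rank 770, replicate ranks 817, 833 and 703 and a summit 184 bp upstream. MED17, the large subunit on which the head is built, had a signal of 1477, rank 805, replicate ranks 419, 1099 and 930 and a summit 160 bp upstream. These 3 were the Mediator genes among the 1000 strongest peaks, and all of them ranked 1099 or better in each replicate.

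The middle module, to which MED7, MED21 and MED31 belong, had an IDR promoter peak at 8 of its 9 genes. This is 88.9% (exact 95% interval 51.8 to 99.7%), against 35.6% of all protein-coding genes. In the pooled list the modules were alike, with 8 of 9 in the middle, 6 of 7 in the head, 4 of 5 in the tail and all 3 of the head-tail junction. The pooled share of all protein-coding genes was 49.2%. MED31 had a signal of 1185, rank 1189, replicate ranks 698, 1597 and 1416 and a summit 184 bp upstream. MED7 had a signal of 1146, rank 1250, replicate ranks 913, 1906 and 1020 and a summit 93 bp upstream. The other 6 listed middle genes, MED4, MED21, MED19, MED9, MED26 and MED1, were weaker, with IDR ranks between 2250 at MED4 and 8423 at MED1. The 1 middle gene left was MED10, which had a summit in replicates 1 and 3 (ranks 4046 and 5488) and none in replicate 2 or the pooled list.

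Of the 7 head genes, 3 had an IDR promoter peak: MED17, MED8 (rank 5981) and MED6 (rank 6396). This is 42.9% (exact 95% interval 9.9 to 81.6%), against 35.6% of all protein-coding genes. Another 3 head genes were in the pooled list only below the IDR peaks. MED20, whose start lies 47 bp from that of Trf, a TBP-related factor, had a pooled signal of 150.0, rank 12483, replicate ranks 10038, 11822 and 15794 and a summit 53 bp upstream. MED11 had a pooled signal of 87.3, rank 18630, replicate ranks 22861, 11204 and 26551 and a summit 52 bp upstream. MED18 had a pooled signal of 68.7, rank 22305, ranks 14473 and 18340 in replicates 2 and 3, no summit in replicate 1, and a pooled summit 121 bp upstream. Its summits in replicates 2 and 3 lay apart, 49 and 497 bp upstream. MED22, on the X, was in no list, and the nearest pooled summit lay 7198 bp away. The head thus held both some of the strongest and the weakest values of Mediator.

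Of the tail, which receives activators, MED16 (rank 4306), MED25 (rank 6155) and MED15 (rank 9605) were in the IDR list. These are 3 of 5 (60%, exact 95% interval 14.7 to 94.7%), against 35.6% of all protein-coding genes. MED23 was in the pooled list only, with a signal of 163.4, rank 11720, replicate ranks 7302, 12845 and 10696 and a summit 41 bp downstream of the start. MED24 had a summit in replicate 3 alone, at rank 6856. The third junction gene, MED28, had a pooled signal of 166.4, rank 11577, replicate ranks 14191, 13514 and 11221 and a summit 14 bp upstream. MED14, the backbone that ties the modules together, had a summit in replicates 2 and 3 (ranks 8195 and 13171) and in neither the pooled nor the IDR list. Its summits lay apart, 23 bp upstream in replicate 2 and 420 bp upstream in replicate 3. The tail, the backbone and the middle had no gene among the 1000 strongest peaks. The median IDR rank of the listed tail genes, 6155, was close to that of the head, 5981, and of the middle, 6038.

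TFIID genes had a promoter peak in the IDR list at 8 of 16 (50%, exact 95% interval 24.7 to 75.3%), against 35.6% of all protein-coding genes, which this interval includes. Their replicate mean was 77.1% ± 7.22, with 13, 11 and 13 genes, against 50.6% ± 1.3 for all protein-coding genes (SD, n = 3). The strongest peak of all 80 genes was at Taf5 (FBgn0010356), the WD40 subunit of the TFIID core, with a signal of 2496, rank 296, replicate ranks 277, 331 and 318 and a summit 161 bp upstream. Taf2, which touches DNA at the initiator, had a signal of 1837, rank 548, replicate ranks 558, 519 and 629 and a summit 229 bp upstream. Taf4, a core subunit that activators contact, had a signal of 975.1, rank 1591, replicate ranks 1731, 1450 and 1501 and a summit 134 bp upstream of a start inside the gene. For Taf5, Taf2 and Taf4 the replicate ranks lay close to one another, and all 3 replicates placed them in that order. Taf13 had a signal of 539.6, rank 3521, replicate ranks 3817, 4341 and 2700 and a summit 147 bp upstream.

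Tbp, which encodes the TATA-binding protein itself, had a weaker peak, with a signal of 329.2, rank 6276, replicate ranks 6363, 9615 and 5478 and a summit 27 bp upstream. Taf6, a histone-fold subunit, stood at rank 7154, and Taf10 and Taf10b shared 1 peak at rank 7746. The starts of this pair, paralogs of 1 histone-fold subunit, lie 45 bp apart and head to head, and their peak had a signal of 267.8, replicate ranks 11522, 8664 and 4475 and a summit 112 bp upstream of the Taf10 start and 67 bp into Taf10b. They are 2 of the 8 listed TFIID genes but 1 peak.

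Taf1, the largest TFIID subunit, had a summit in replicates 1 and 3 (ranks 4582 and 4913) and no pooled summit nearer than 10714 bp. Taf9 and Taf8 were in the pooled list only. Taf9, the histone-fold partner of Taf6, had a pooled signal of 185.1, rank 10647, ranks 10715 and 14810 in replicates 2 and 3 and a summit 25 bp upstream. Taf8 had a pooled signal of 79.5, rank 19989, ranks 10378 and 18753 in replicates 1 and 3 and a summit 45 bp upstream. Taf12, another histone-fold subunit, had a summit in all 3 replicates (ranks 7568, 10143 and 6358) but none in the pooled list. Taf7 and Taf11 had a summit in replicate 1 alone (ranks 2518 and 5480), and Taf3 in replicates 2 and 3 (ranks 12438 and 11403). The Taf3 summits lay far apart, 493 bp upstream in replicate 2 and 176 bp downstream in replicate 3. Taf12L, the paralog of Taf12 used in the testis, was in no list. TFIID thus ran from the strongest peak of the 80 genes to promoters seen in 1 replicate or in none.

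General factor genes had a promoter peak in the IDR list at 7 of 9 (77.8%, exact 95% interval 40 to 97.2%), against 35.6% of all protein-coding genes, and the same 7 were found in the pooled list and in each replicate. TfIIA-L (FBgn0011289), the large subunit of the factor that steadies TBP on DNA, had a signal of 1310, rank 991, replicate ranks 949, 1060 and 1025 and a summit 157 bp upstream of its downstream start, between it and the start of pll. TfIIB, the factor that joins polymerase II to TBP, had a signal of 765.4, rank 2231, replicate ranks 1854, 3157 and 1979 and a summit 283 bp upstream. TfIIA-S, the small TFIIA subunit, had a signal of 525.4, rank 3639, replicate ranks 3416, 4049 and 3627 and a summit 50 bp upstream. These 3 kept the same order in every replicate, and TfIIA-L was the only general factor gene among the 1000 strongest peaks. TfIIFalpha, of the factor that escorts polymerase II, had a signal of 392.6, rank 5190, replicate ranks 4719, 3907 and 10469 and a summit 100 bp upstream. TfIIEbeta, of the factor that brings in TFIIH, had a signal of 309.3, rank 6711, replicate ranks 8737, 9135 and 5263 and a summit 88 bp upstream. TfIIS, which rescues stalled polymerase, and TfIIEalpha stood lower, at ranks 7797 and 9117.

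Partners within a factor did not always go together. TfIIFbeta, the other TFIIF subunit, was in no list, and its nearest pooled summit lay 6478 bp away. TfIIA-S-2, a second copy of the small TFIIA subunit, on the X, was in no list either, with the nearest pooled summit 11688 bp away. These were the only general factor genes without a peak.

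Polymerase genes had a promoter peak in the IDR list at 15 of 30 (50%, exact 95% interval 31.3 to 68.7%), against 35.6% of all protein-coding genes, a share that lies inside this interval. Over the replicates they averaged 73.3% ± 3.33, with 21, 22 and 23 genes, against 50.6% ± 1.3 for all protein-coding genes (SD, n = 3). The strongest was at Polr3E (FBgn0028402), a peripheral subunit of polymerase III, with a signal of 2416, rank 316, replicate ranks 381, 356 and 267 and a summit 254 bp upstream. Polr2B, the second largest subunit of polymerase II, had a signal of 2105, rank 423, replicate ranks 322, 541 and 417 and a summit 97 bp upstream. Both ranked 541 or better in every replicate. Polr2J, of polymerase II, had a signal of 1333, rank 964 and a summit 129 bp upstream, with ranks 444 and 1528 in replicates 1 and 2 and no peak in replicate 3 within 17 kb. Polr2H, shared by the polymerases, had a signal of 1291, rank 1021, replicate ranks 429, 1369 and 1759 and a summit 144 bp upstream. Polr2F, also shared, had a signal of 684.2, rank 2578, replicate ranks 1930, 2987 and 3024 and a summit 62 bp upstream.

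The genes of the catalytic subunits are too few per enzyme for a comparison and are given singly. Of all protein-coding genes, 35.6% were in the IDR list and 38% in no list. For polymerase II, both Polr2A, the largest subunit, and Polr2B were in the IDR list, Polr2A with a signal of 468.8, rank 4185, replicate ranks 3545, 5142 and 4008 and a summit 140 bp upstream. For polymerase I, Polr1B was listed at rank 4501 and the largest subunit, Polr1A, was in no list. For polymerase III, neither Polr3A nor Polr3B, its large subunits, was in any list, and their nearest pooled summits lay 13784 and 3838 bp away.

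By enzyme, 5 of the 8 genes of polymerase II alone were in the IDR list: Polr2B, Polr2J, Polr2A, Polr2I (rank 4530) and Polr2C (rank 5788). Of the 5 shared by all the polymerases, Polr2H, Polr2F and Polr2E (rank 8571) were listed. Of the 2 shared by polymerases I and III, Polr1D (rank 3828) was listed. Of the 5 of polymerase I alone, Polr1B and Polr1E (rank 7863) were listed. Of the 10 of polymerase III alone, Polr3E, Polr3F (rank 4275), Polr3K (rank 5423) and Polr3G (rank 9049) were listed. Genes of polymerases I and III only were therefore listed at 7 of 17 (41.2%, exact 95% interval 18.4 to 67.1%), and genes of polymerase II or shared by all at 8 of 13 (61.5%, 31.6 to 86.1%), intervals that overlap widely. Both intervals include the 35.6% of all protein-coding genes.

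Below the IDR peaks, 5 polymerase genes were in the pooled list. Polr3D, which pairs with Polr3E in polymerase III, had a pooled signal of 199.6, rank 10051, replicate ranks 8186, 8021 and 21206 and a summit 115 bp upstream. Polr2K, a small shared subunit, had a pooled signal of 181.8, rank 10821, ranks 20844 and 8435 in replicates 2 and 3 and a summit 65 bp upstream. Polr3I had a pooled signal of 160.4, rank 11873, replicate ranks 11546, 11833 and 14084 and a summit 57 bp upstream. These 3 stood close below the limit of the IDR list. Polr2G, of the stalk of polymerase II, had a pooled signal of 139.1, rank 13230, replicate ranks 17948, 15569 and 13152 and a summit 1 bp upstream. Polr1C, the partner of Polr1D, had a pooled signal of 105.1, rank 16249, replicate ranks 16325, 18569 and 28205 and a summit 68 bp upstream.

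Outside the pooled list, Polr1F had a summit in all 3 replicates (ranks 3797, 3874 and 8388). Polr2D (ranks 13264 and 10005) and Polr3C (ranks 12653 and 5650) had one in replicates 2 and 3, Polr2L (rank 18704) in replicate 1 alone, and Polr2M (rank 10383) in replicate 3 alone. Polr1A, Polr1H, Polr3A and Polr3B were in no list. The polymerases, 30 of the 80 machinery genes, thus held 4 of the 8 with no promoter summit in any list. These 8 are 10% of the 80, against 38% of all protein-coding genes.

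**Figure D1:**
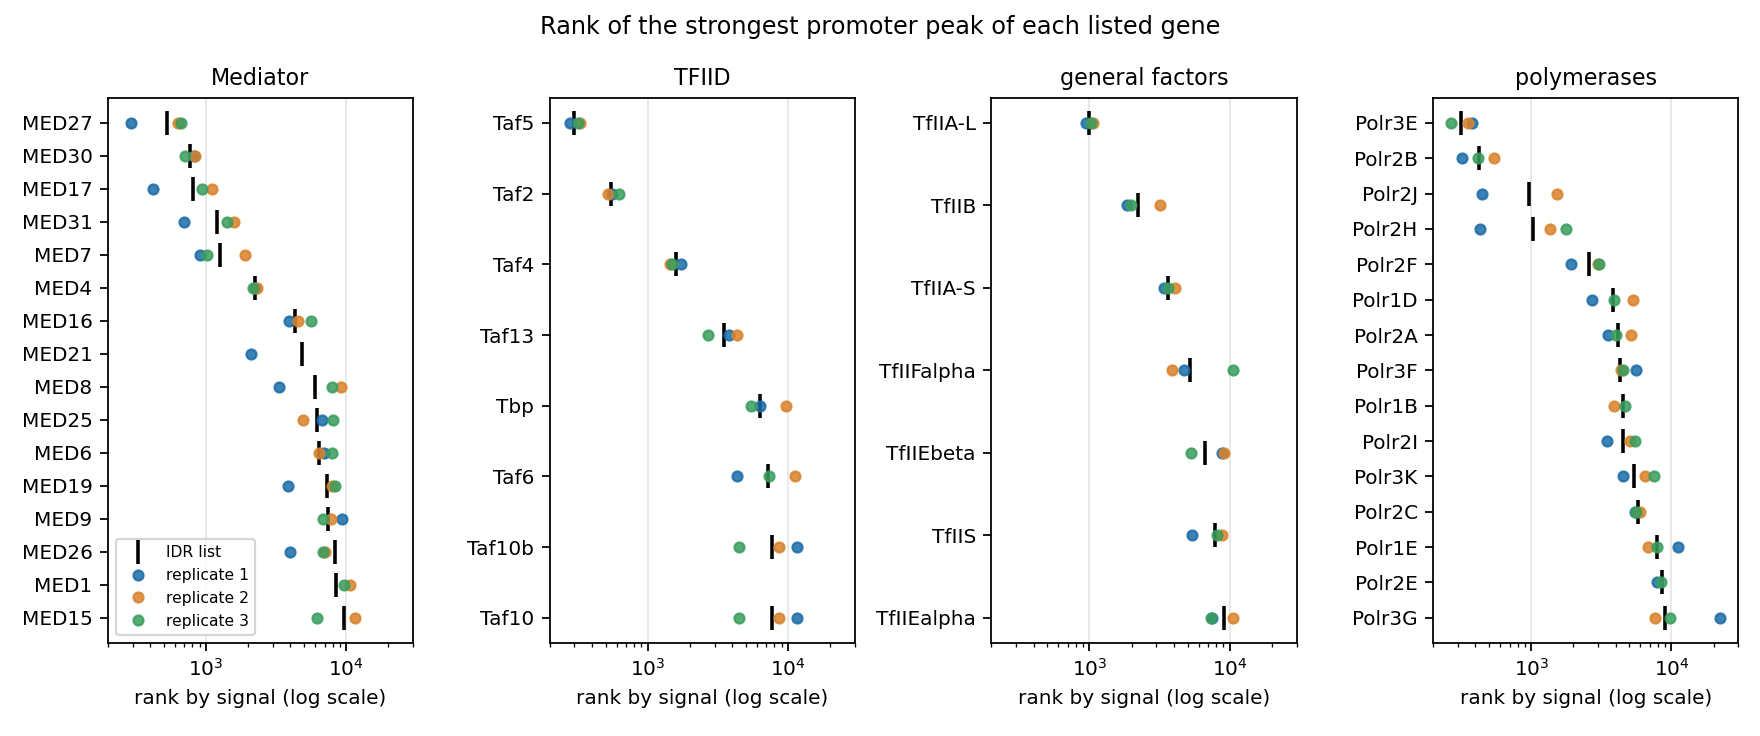
Rank of the strongest promoter peak of each of the 46 machinery genes in the IDR list, by complex, on a log scale. The black bar is for the IDR list, with 1 coloured point for each replicate list that has a promoter summit of the gene. Taf5, Polr3E, Polr2B, MED27 and Taf2 stand at the left in all 3 replicates, MED21 has a point for replicate 1 only, and Polr2J has none for replicate 3.

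Set side by side, the differences between complexes varied from list to list. In the IDR list general factors stood 27.8 percentage points above the polymerases and Mediator 14 points above them, while TFIID and the polymerases had equal shares. There Mediator minus TFIID was 14 points, Mediator minus general factors -13.8 points and TFIID minus general factors -27.8 points. In the replicates, Mediator minus polymerases was 6, 10.7 and 15.3 points (mean 10.7 ± 4.67, SD), and general factors minus polymerases was 7.78, 4.44 and 1.11 points (mean 4.44 ± 3.33, SD). Each of these had 1 direction in 3 of 3 replicates, and the two-sided exact sign-flip permutation test gave p = 0.25 for each, the smallest value possible. Mediator minus TFIID was -5.25, 15.2 and 10.8 points (mean 6.92 ± 10.8, SD; exact permutation p = 0.5), so replicate 1 went the other way. TFIID minus general factors averaged -0.694 ± 7.22 points (SD; exact permutation p = 1), TFIID minus polymerases 3.75 ± 7.95 points (SD; exact permutation p = 0.75) and Mediator minus general factors 6.22 ± 8 points (SD; exact permutation p = 0.5), the last of opposite sign to the IDR list. With 3 replicates none of the 6 pairs could pass a threshold of 0.05, so these tests show neither that the complexes differ nor that they are alike.

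**Figure D2:**
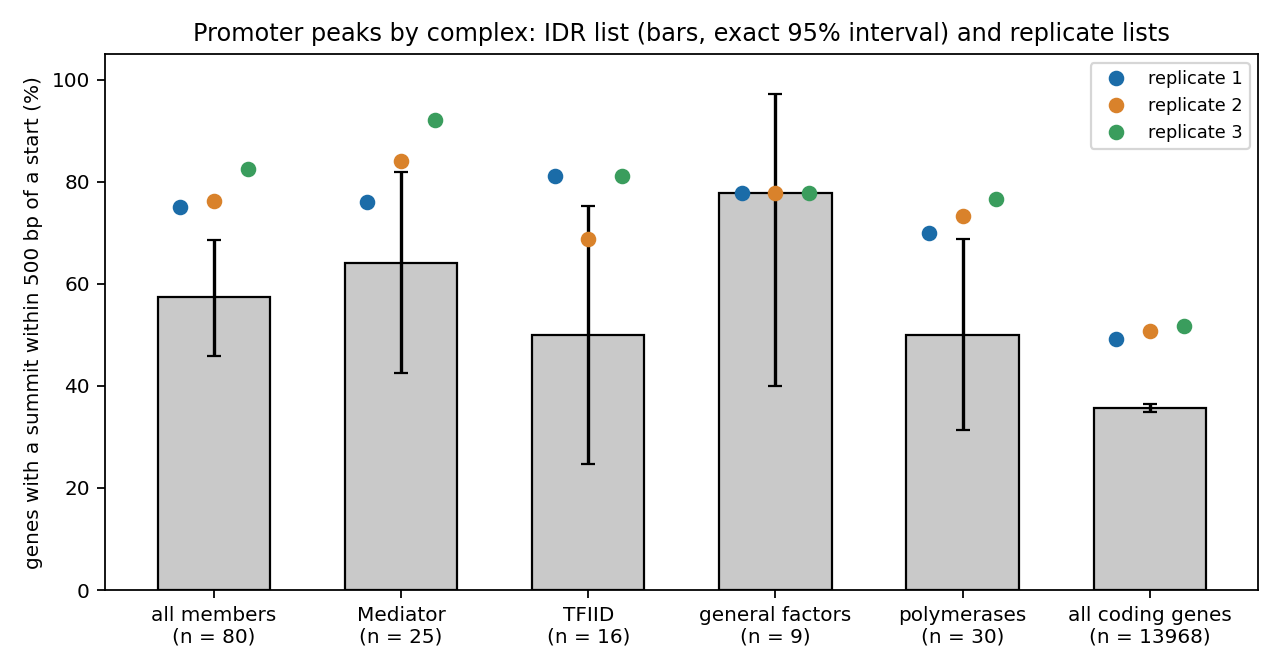
Share of genes with a promoter summit, in percent: grey bars give the IDR list with the exact 95% interval, points the 3 replicate lists, for all 80 machinery genes (members), each complex, and all 13968 protein-coding genes at the right. The replicate points of every complex lie above those of all protein-coding genes, and the intervals of the 4 complexes overlap.

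The listed peaks mostly came back in the replicates. Of the 46 genes, 40 had a promoter summit in all 3 replicate lists (87%), against 91.1% of all listed protein-coding genes, 5 in 2 replicates and 1 in 1 replicate. The 5 were MED1, MED15 and Polr1B, with none in replicate 1, Polr2E, with none in replicate 2, and Polr2J, with none in replicate 3. For MED15 a replicate 1 summit lay 544 bp from the start, and for MED1 one lay 798 bp away, so both fell outside the window of 500 bp. The nearest replicate 1 summit was 2605 bp from the Polr1B start, and the nearest replicate 2 summit 881 bp from that of Polr2E. For Polr2J the nearest replicate 3 summit was 17074 bp away, although the gene ranked 444 and 1528 in the other two. MED21 was the 1 gene with a summit in replicate 1 only, at rank 2091, and the nearest summits of replicates 2 and 3 were 578065 and 577963 bp away.

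The replicates differed in rank about as much as at other genes. Over the 40 genes seen in all replicates, the worst replicate rank was a median of 1.64 times the best, and over the 4529 such protein-coding genes 1.66 times. The best of the 3 ranks was that of replicate 1 at 22 of the 40 genes (55%), against 48.6% of all such protein-coding genes. By complex, replicate 1 ranked best at 8 of 13 Mediator genes, 2 of 8 TFIID genes, 4 of 7 general factor genes and 8 of 12 polymerase genes. The highest ratio was 4.1, at Polr2H, with ranks of 429, 1369 and 1759.

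The converse case, a promoter summit in every replicate but none in the pooled list, was met at Taf12 and Polr1F, 2 of the 22 machinery genes outside the pooled list (9.09%). Among all protein-coding genes it was met at 86 of 7090 (1.21%). The Taf12 summits lay 36, 18 and 7 bp upstream of its start in replicates 1, 2 and 3, and the nearest pooled summit 1418 bp away. The Polr1F summits lay 54, 98 and 157 bp upstream, and the nearest pooled summit 6374 bp away. In all, 8 machinery genes were in no list (10%), against 38% of all protein-coding genes.

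The summits had the same median position as those of other genes. The median position of the 46 was 123 bp upstream of the start (quartiles at -170.25 and -53 bp, upstream being negative), and that of all listed protein-coding genes was also 123 bp upstream (quartiles at -208 and -49 bp). Upstream of the start were 43 of 46 (93.5%), against 87.9% of all listed protein-coding genes, and 29 lay between 50 and 200 bp upstream (63%), against 48.2%. The 3 summits downstream of the start were at MED26, MED6 and Taf10b. MED26, at 409 bp, was the farthest inside the window, followed by MED15 at 339 bp and MED25 at 328 bp. The nearest IDR summits just outside it were 532 bp from Taf3 and 728 bp from Taf8.

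**Figure D3:**
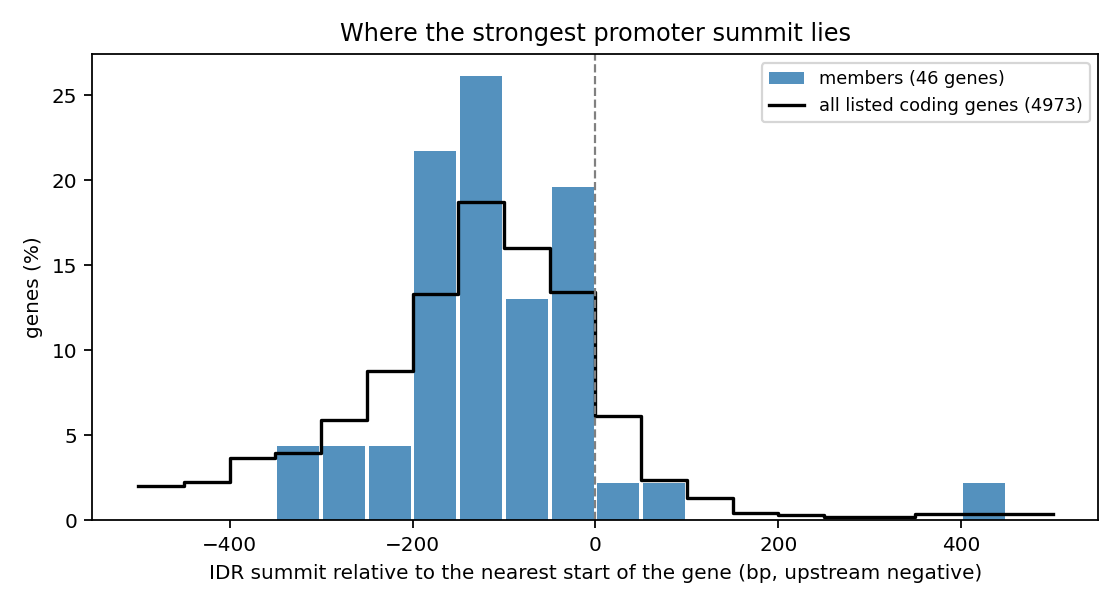
Position of the strongest IDR promoter summit relative to the nearest start of the gene, in bp with upstream negative, in bins of 50 bp, as a percentage of genes. Blue bars are the 46 machinery genes (members) and the black line all 4973 listed protein-coding genes, and both have their median at 123 bp upstream.

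Many of these peaks lie within reach of more than 1 gene. At 32 of the 46 genes the same summit was also within 500 bp of a start of another gene (69.6%), against 57.2% of all listed protein-coding genes. The machinery gene had the start nearest to its strongest summit at 27 of 46 (58.7%), against 72.8% of all listed protein-coding genes. By complex this was 10 of 16 in Mediator, 3 of 8 in TFIID, 4 of 7 among general factors and 10 of 15 among polymerases. At Taf5 the summit was 161 bp from its start and 140 bp from that of Pex6, and at Taf2 229 bp from its start and 150 bp from that of CalpB. At Polr3E the strongest summit was 254 bp from its start and 211 bp from that of CG10584. A second, weaker IDR summit lay 23 bp from the Polr3E start, and TfIIB likewise had a weaker one 84 bp from its start. At MED27 and Polr2B the nearest start was their own, at 113 and 97 bp, although elm and 140up also lay within reach. Other pairs at 1 summit were Taf6 with ash1, a regulator of homeotic genes, Polr2I with su(Hw), an insulator protein gene, and Polr1D with brat, a translational repressor. A peak between a pair of starts cannot be given to 1 of the genes from these lists.

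The counts were also taken by the arrangement of the genes. A divergent neighbour, meaning another protein-coding gene head to head with its start within 1000 bp, was found at 55 of the 80 machinery genes (68.8%), against 36.2% of all protein-coding genes. With such a neighbour, 34 of 55 had an IDR promoter summit (61.8%, exact 95% interval 47.7 to 74.6%), against 58.5% of all protein-coding genes so arranged. Without one, 12 of 25 had an IDR promoter summit (48%, 27.8 to 68.7%), against 22.6% of all protein-coding genes without one. In the IDR list the interval of the machinery genes thus took in the share of all genes where a divergent neighbour was present and lay above it where none was, and whether the gaps differ from each other was not tested. The 12 without such a neighbour were Tbp, Polr1B, Polr1E, Polr2E, Polr2F, Polr3G, TfIIA-S, TfIIEalpha, TfIIEbeta, MED4, MED21 and MED26. Over the replicates the share was 84.2% ± 2.78 for machinery genes with a divergent neighbour and 72.9% ± 2.9 for all such protein-coding genes (SD, n = 3). Without one it was 64% ± 6.93 for machinery genes and 37.9% ± 0.432 for all such protein-coding genes (SD, n = 3).

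**Figure D4:**
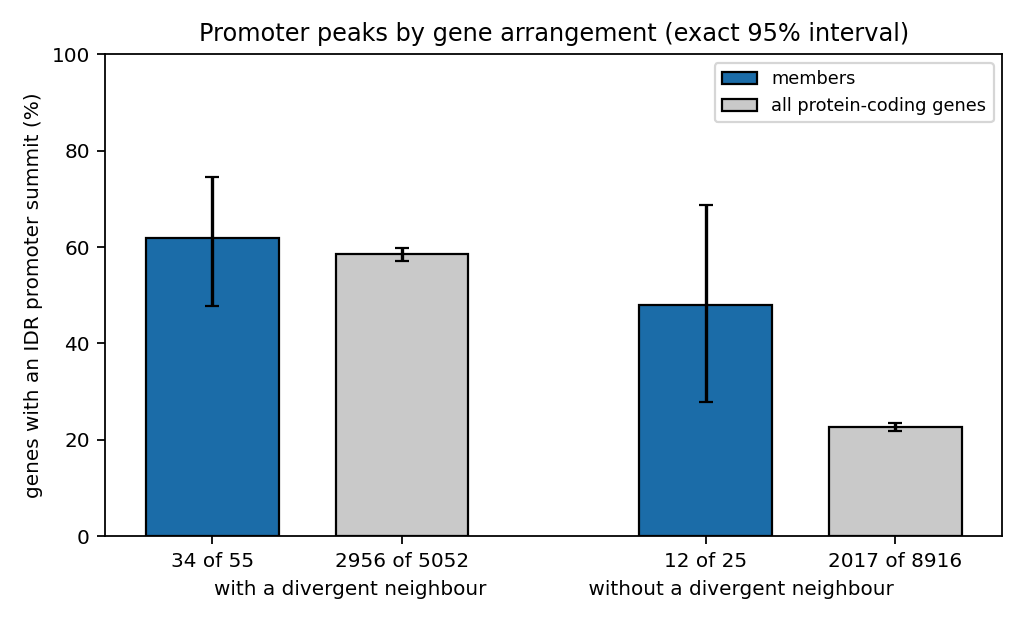
Share of genes with an IDR promoter summit, in percent with exact 95% intervals, for genes with a divergent neighbour within 1000 bp (left) and without one (right), in blue for the 80 machinery genes (members) and in grey for all protein-coding genes. The bars on the left stand at 61.8 and 58.5%, those on the right at 48 and 22.6%.

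The distance between the paired starts also varied. It was a median of 276 bp at the 34 divergent machinery genes with an IDR summit and 120 bp at the 21 without one, and 298 bp over all divergent protein-coding genes. Among those without an IDR summit were MED20 and Trf at 47 bp, MED10 and PDCD-5 at 46 bp, Polr2D and moi at 43 bp, Taf12 and Ho at 53 bp, and Polr1A and Blos1 at 62 bp. The shortest distance among the 55 machinery genes, 19 bp at MED6 and Naa80, did carry an IDR summit.

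By chromosome, the X differed between the lists. On the X, Polr2A alone of 8 machinery genes had an IDR promoter summit (exact 95% interval 0.316 to 52.7%), against 36.8% of all X protein-coding genes. The other X genes were MED18, MED22, Taf8, Taf9, TfIIA-S-2, Polr3A and Polr3I. In the pooled list 5 of the 8 had one, against 58.1% of all X protein-coding genes. In replicates 1, 2 and 3 the counts were 3, 4 and 5 of 8, against 55.1, 57.2 and 57.2% of all X protein-coding genes. The IDR count was 10 of 15 on 2L, against 34.1% of all protein-coding genes there, and 7 of 11 on 2R, against 34%. It was 13 of 19 on 3L, against 36.8%, 14 of 25 on 3R, against 36.6%, and 1 of 2 on chromosome 4, against 40%. The interval for the X includes the share of all X genes, so a lower share there was not shown.

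The base composition under the summits was then measured over all the peaks. Over the 45 distinct peaks at machinery genes the median G + C of the 101 bases around the summit was 29.7%, against 33.7% at 4200 IDR peaks at other protein-coding promoters. At 300 bp to the left and right it was 49.5 and 45.5% at the machinery genes, against 43.6 and 44.6% at the other promoters. The summit window was lower in G + C than both flanks at 34 of 45 machinery peaks (75.6%), against 55% of the others, so 11 of the 45 did not show such a dip. The richest in G and C were MED6 at 58.4% and MED19 at 54.5%. At the strongest peak, Taf5, it was 14.9%, with flanks of 50.5 and 42.6%. Whether sequencing or calling favours such sequence was not tested.

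**Figure D5:**
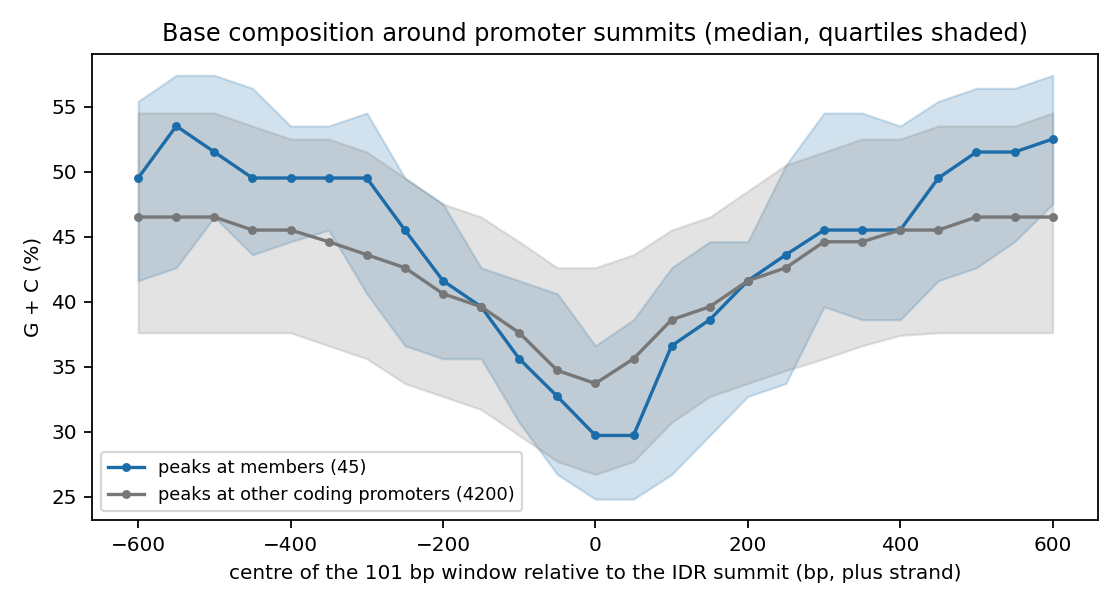
G + C content in windows of 101 bp by distance from the IDR summit, in bp along the plus strand, as the median (line) and quartiles (shading), in blue for the 45 peaks at machinery genes (members) and in grey for 4200 peaks at other protein-coding promoters. Both reach their lowest median near the summit, 29.7% for machinery genes and 33.7% for the others.

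Short sequences were searched as exact letters on either strand, within 50 bp of the summit and in windows of the same size at 300 bp on either side. ATTTAA, 1 of 5 sequences of 6 bases taken from IDR peaks at no machinery gene, stood under 20 of 45 machinery summits (44.4%), against 11.1% of their flanks. The same letters were found at 29.5% of the other promoter summits, and at 14% of their flanks. AAAATA stood under 44.4% of machinery summits and 12.2% of their flanks, against 38.2% of the other promoter summits. TTAAAA stood under 40% of machinery summits and 8.89% of their flanks, against 32.6% of the other promoter summits. AAATAT stood under 33.3% of machinery summits and 16.7% of their flanks, against 34% of the other promoter summits, and TAAATA under 35.6% of machinery summits and 10% of their flanks, against 31% of the other promoter summits. The flanks of the other promoter summits held AAAATA at 19.9%, TTAAAA at 16.2%, AAATAT at 16.5% and TAAATA at 15%. None of these gaps to other promoters was tested. The 5 sequences were taken from a set that includes the other promoter peaks, so their excess over flanks there may follow from that choice. These sequences overlap in their letters and are all A and T, so they restate the base composition in part. The TATA box letters TATAAA stood under 17.8% of machinery summits, against 21.9% of other promoter summits.

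Known promoter sequences were also searched in the 250 bases before and 50 after each start. The core of Motif 1, GGTCACAC, a sequence of broadly used fly promoters, was found in 8 of the 46 promoters with an IDR summit (17.4%), in 13 of the 34 without one (38.2%) and in 7.7% of all protein-coding promoters. The DRE letters TATCGATA were found in 13% of the machinery promoters with an IDR summit, in 20.6% of those without one and in 9.36% of all. The GAGA letters GAGAG were found in 26.1% of those with a summit, 11.8% of those without one and 29.8% of all. CGATA, part of the site of the insulator protein BEAF-32, was found in 54.3% with a summit, 58.8% without one and 47.4% of all, and the TATA box letters in 45.7, 44.1 and 45.9%. The initiator core TCAGT was found in 30.4% with a summit, 38.2% without one and 51.6% of all, the E-box CACGTG in 8.7, 11.8 and 4.23%, and the E-box CAGCTG in 15.2, 20.6 and 17.7%. Motif 1 was thus found in a larger share of machinery promoters than of all promoters, and in a larger share of those without an IDR summit. Within 50 bp of the summits themselves, CGATA stood at 13.3% of machinery peaks, against 26.1% of other promoter peaks. The DRE letters stood at 2.22% against 5.64%, Motif 1 at 2.22% against 3.55% and GAGAG at 4.44% against 9.19%. TCAGT stood at 15.6% against 16.8%, CAGCTG at 0% against 5.5% and CACGTG at 2.22% against 1%. Matches are descriptions of letters and were not tested.

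Machinery genes outside the naming rule were counted in the same way. Among general factors not covered by the symbols, 8 of 10 TFIIH genes had an IDR promoter summit (80%, exact 95% interval 44.4 to 97.5%), against 35.6% of all protein-coding genes. Ssl1 (signal 7264, rank 22, at a summit shared with Chro), mrn (rank 1145) and Mat1 (rank 1206) were the strongest. Of 17 genes of pausing and elongation 14 had one (82.4%, 56.6 to 96.2%), against the same 35.6%. They were led by the NELF genes TH1 (rank 592) and Nelf-E (rank 747) and by dre4 (rank 1851), a FACT subunit. Of 14 Integrator genes, whose products cleave nascent transcripts, 9 had one (64.3%, 35.1 to 87.2%, an interval that includes 35.6%). They were led by IntS6 (rank 1349), defl (rank 1495) and IntS11 (rank 1837). Of 7 genes for TBP-related proteins and initiation factors of polymerase III, 4 had one (57.1%, 18.4 to 90.1%, which also includes 35.6%). Brf (rank 358) and Bdp1 (rank 419), both TFIIIB subunits, were the strongest, and the third was Pbp95 (rank 4091). Of the 5 Mediator subunits under other names, those of the kinase module and ix, skd (rank 2474) and Cdk8 (rank 3015) had one. This is 40% (5.27 to 85.3%), near the 35.6% of all protein-coding genes in the IDR list. Over the replicate lists the mean share was 80% for these Mediator genes, 83.3% for Integrator and 85.7% for TBP-related and polymerase III initiation factors. It was 90% for TFIIH and 88.2% for pausing and elongation, against 50.6% for all protein-coding genes. None of the 4 other testis TAF genes, nht, can, mia and sa, had an IDR summit (exact 95% upper limit 60.2%), against 35.6% of all protein-coding genes, and 1, 2 and 2 of them had a summit in replicates 1, 2 and 3.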

How the data were processed

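Peak lists of 3 biological replicates (1 group), a pooled list and an IDR list were used, 5 in all. Per the labels the build is dm6, and the size range is 200 to 800, with no unit. Per the text deposited with the lists, each replicate was called on its own alignments against 1 control file and the pooled list on all 3 replicates together. The aligner, peak caller and IDR threshold are not given in the sources used here, and depth is unknown. The deposited signal value is the authors' enrichment of a peak, whose scaling is not recorded, so it was used to rank peaks within a list and not between replicates. The deposited −log10 q reached 1 highest value per list (4.34 in all 9789 IDR peaks) and was not used for ranking. The summit is the peak's start plus the deposited summit offset, the last column (recorded as a score). Among the 30000 peaks of a list the −log10 q went as low as 0.0776 in replicate 1, 0.458 in replicate 2, 0.456 in replicate 3 and 0.262 in the pooled list, which is little support for the weakest.

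Summits were assigned to every gene with a transcript start within 500 bp (Ensembl release 115), and the strongest was kept per gene. Sequences were read from RefSeq's Release 6 genome, the same assembly. Exact 95% intervals are Clopper-Pearson. Shares over replicates were compared with a two-sided exact sign-flip permutation test. Assignment was tested on simulated data. Members, complexes and lists were chosen with earlier results of these data known, and module membership comes from general knowledge of the complexes. Named with full values were up to 5 strongest genes per complex, every gene among the 1000 strongest IDR peaks and genes in the pooled but not the IDR list. One gene is counted but not reported here by name. Genes named for position, pairing or replicate pattern were chosen after their values were seen. Alternatives were other windows, starts, list lengths and overlap rules, leaving out each replicate, and, chosen after seeing the data, counting distinct peaks. Software was SciPy 1.17.1, pandas 2.3.3 and NumPy 2.4.6 under Python 3.11.15, and figures were drawn with matplotlib 3.10.9.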

Additional observations from a re-analysis of the deposited data

How the results depend on the processing

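In the upper 50% of the IDR list by signal, promoter summits lay within reach of 25 of the 80 machinery genes (31.2%, against 20.6% of all protein-coding genes), 8 of Mediator, 4 of TFIID and 3 of the general factors. When every summit, not only the strongest per gene, was given only to the gene of its nearest start, 30 of the 80 were counted (37.5%, against 27.1%). Of these 10 were of Mediator and 3 of TFIID. The TFIID share was then 18.8%, below the 27.1% of all protein-coding genes, so that the order of TFIID and all genes turned round. Windows of 250 and 1000 bp gave 43 and 48 genes (53.8 and 60%, against 30.1 and 39.5% of all protein-coding genes). A stricter setting that left out 1 replicate gave 35, 35 and 33 genes without replicates 1, 2 and 3. These were 43.8, 43.8 and 41.2% of the 80, against 28.8, 27.9 and 27% of all protein-coding genes. It asked for more than a promoter summit in the remaining replicates, since 40 of the 46 genes had one in all 3. For TFIID it gave 7, 6 and 5 genes, against 8 in the IDR list. The TFIID shares were 43.8, 37.5 and 31.2%, the last near the 27% of all protein-coding genes. The mean share over the replicates fell to 58.3% with the 9789 strongest peaks of each, against 77.9% with all, and was 75.6 to 79.4% when 1 was left out. Of all protein-coding genes, 35.4, 34.4 and 36.9% had a summit among those strongest peaks in replicates 1, 2 and 3. With all peaks their mean share was 50.6%. The difference from all protein-coding genes over the replicate lists was between 22.8 and 31.1 percentage points with other windows, with the strongest peaks of each replicate and with 1 replicate left out, with exact permutation p of 0.25, or 0.5 with 1 replicate left out. The other alternatives run moved each of these counts by no more than 1.5 times. Counting distinct peaks gave 45, and 7 for TFIID, since Taf10 and Taf10b share 1. No paired analysis was possible because there is 1 group. Depth is unknown, so what it limits cannot be stated, and the lists of 30000 peaks end at a limit on length.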
